A study of Homo sapiens with 54 samples.

Results

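Heat shock proteins and the cochaperones that work with them were followed as a set of 48 genes, chosen by symbol from the HSP70, HSP90, HSP60, HSP40 and TRiC families and their helpers, out of 50037 gene entries in a bulk RNA-seq table of 54 libraries. The libraries come from HCT116, a colon cancer cell line, and HepG2, a liver cancer line. Each line was given Torin1 at 1 µM, TNF-α at 100 ng/mL, IL-6 at 50 ng/mL or IL-10 at 50 ng/mL for 3 h or 6 h, and was compared with a negative control (NC) that received the same volume of medium. Every group has 3 libraries, which makes 9 groups and 27 libraries per line. All cells grew in DMEM with serum in 6-well plates. The labels give NC no time and name no vehicle for Torin1. The libraries of a group are called biological replicates, but no source ties them to cultures of their own, and the p-values below speak only of the spread among these libraries, part or all of which may be technical.

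Chaperones hold unfolded proteins and help them fold. HSP70 binds and releases its clients in a cycle that J proteins (HSP40) start and nucleotide exchange factors of the HSP110 and BAG families end, HSP90 takes over clients such as kinases and steroid receptors with the help of cochaperones, and TRiC, a ring of CCT subunits, folds actin and tubulin. Many of these genes are transcribed by heat shock factor 1 (HSF1), which binds repeated GAA and TTC units called heat shock elements. Torin1 inhibits the kinase mTOR, which promotes protein synthesis in fed cells, IL-6 and IL-10 act through JAK and STAT proteins, and TNF-α acts mainly through NF-kB.

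Not all members are cytosolic. HSPA9, HSPD1, HSPE1 and DNAJA3 act in mitochondria, SERPINH1 is a collagen chaperone of the endoplasmic reticulum, UBB encodes ubiquitin and JMJD6 is a nuclear oxygenase, so the set is described here by role. Levels are FPKM as the authors deposited them, a fragment count scaled for transcript length and by a factor per library. That factor followed median-of-ratios factors and not total reads. Differences are log2(FPKM + 1) in the treated group minus log2(FPKM + 1) in NC, with their standard error (SE). A gene was tested in a line where at least 3 libraries reached 1 FPKM, and was called where limma's Benjamini-Hochberg adjusted p over all genes tested was under 0.05. "Rose" and "fell" are used of called genes. Of the 48 members, 44 were tested in HCT116 and 42 in HepG2.

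DNAJA3, CCT8, HSF1 and CRYAB were under the filter in both lines. The first 3 are also listed in the table at a copy of their locus, which can divide the reads. Their gene entries reached no more than 0.0440 FPKM (DNAJA3), 0.189 FPKM (CCT8) and 0.633 FPKM (HSF1) in any HCT116 library. The copy entries had medians of 5.25, 4.81 and 0.887 FPKM in HCT116, and of 3.65, 2.97 and 0.464 FPKM in HepG2. The low gene entries therefore do not show that these genes were silent, and the 3 genes are uncertain and were not compared. CHORDC1, an HSP90 cochaperone, also has a copy entry, ran from 0.588 to 12.2 FPKM over the HCT116 libraries and was called in none of the 16 comparisons with NC. DNAJA4 and DNAJB5 were under the filter in HepG2 only, and HSPB11 is listed under its other symbol, IFT25.

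Depth, recovered from the FPKM steps, ran from 38.5 to 55.7 M reads in HCT116 and from 46.3 to 93.7 M reads in HepG2. Of 7 hepatocyte markers, 6 had a median of at least 1 FPKM in HepG2 and 1 in HCT116, with APOB near 0 in both. Of 6 colon epithelium markers only CDX2 and EPCAM reached that median in HCT116, where VIL1, KRT20, CDH17 and GPA33 were near 0. In HepG2 2 of the 6 reached it as well, EPCAM (median 112 FPKM) and VIL1 (44.6 FPKM), so this count does not separate the lines. In bulk RNA, fewer cells of a type and less RNA per cell cannot be told apart.

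Heat shock elements in the promoters are shown because HSF1 is the known regulator of many members and the letters can be read beside the responses. The motif searched was 3 alternating units, GAANNTTCNNGAA or its reverse complement TTCNNGAANNTTC, in RefSeq windows of 300 bases, 250 before to 50 after each transcript start (GRCh38.p14). It was found for 8 of the 40 members with a window (20%), against 166 of 27305 genes with a window (0.608%). The 10 stretches below are written 5′ to 3′ on the gene's strand, with the GAA and TTC units in capitals. A match is a description of the letters and not a measured binding site.
HSPA8, chr11:123062346-123062375, minus strand: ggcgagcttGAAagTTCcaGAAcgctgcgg
HSPA8, chr11:123062171-123062200, minus strand: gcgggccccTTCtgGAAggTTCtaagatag
HSP90AA1, chr14:102087112-102087141, minus strand: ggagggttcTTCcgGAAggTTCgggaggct
HSP90AB1, chr6:44247769-44247798, plus strand: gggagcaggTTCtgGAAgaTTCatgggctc
HSP90AB1, chr6:44247822-44247851, plus strand: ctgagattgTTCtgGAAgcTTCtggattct
HSPD1, chr2:197500061-197500090, minus strand: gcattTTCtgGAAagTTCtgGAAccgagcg
DNAJA1, chr9:33025267-33025296, plus strand: cgccgggcgGAActTTCcaGAAcgctcggt
DNAJB6, chr7:157336864-157336893, plus strand: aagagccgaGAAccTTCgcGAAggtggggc
CHORDC1, chr11:90223084-90223113, minus strand: accgGAAaaTTCgcGAAggTTCctGAAacg
SERPINH1, chr11:75562168-75562197, plus strand: tttccaactTTCcaGAAgtTTCtcgggacg

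In HSPA8 the matches begin 230 and 55 bases before the start, in HSP90AA1 88 bases before it, and in HSP90AB1 165 and 112 bases before it. In HSPD1 the stretch holds 2 overlapping matches and in CHORDC1 it holds 3, while the match of DNAJA1 lies just past the start. The windows of DNAJB1, HSPH1 and BAG3 do not hold these letters, and JMJD6 has no window in the table used.

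In NC cells HSP90AB1, HSPA8, HSP90AA1, HSPD1 and UBB were the 5 most abundant members in both lines, with HSP90AB1 first in each and the others in another order. HSP90AB1, the constitutive HSP90, averaged 2064 ± 34.2 FPKM in HCT116 NC cells and 1854 ± 28.6 FPKM in HepG2 NC cells (SD, n = 3 each). HSPA8, the constitutive HSP70, averaged 1655 ± 21.2 FPKM in HCT116 and 1158 ± 36.8 FPKM in HepG2. These genes stood at ranks 16 and 23 among all genes tested in HCT116, and at ranks 21 and 40 in HepG2. HSPD1, the mitochondrial HSP60, averaged 954 ± 23.5 FPKM in HCT116 (rank 49) and 1610.3 ± 17.2 FPKM in HepG2 (rank 26).

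In the comparison of the NC groups, 29 of 44 members were higher in HCT116 and 10 lower, where 42.2% and 43.3% of the 12992 genes tested were called in those directions. The widest gap was that of DNAJA4, a J protein, with 16.4, 15.4 and 15.9 FPKM in HCT116 NC libraries against 0.0131, 0.0188 and 0.0261 FPKM in HepG2 NC libraries (log2 difference 4.05, SE 0.04, limma adjusted p = 2.63e-46). HSPB1, the small heat shock protein HSP27, was higher in HCT116 too (1.69, SE 0.082, limma adjusted p = 9.89e-22), as was FKBP4, an immunophilin that binds HSP90 (0.93, SE 0.031, limma adjusted p = 2.12e-27). All 7 tested TRiC subunits were higher in HCT116, by 0.16 (TCP1) to 0.92 (CCT2). Lower in HCT116 were DNAJB2 (-1.14, SE 0.057, limma adjusted p = 3.28e-21), HSPD1 (-0.75, SE 0.032, limma adjusted p = 5.43e-24) and DNAJA2 (-0.60, SE 0.027, limma adjusted p = 6.32e-23). Scaling by total reads puts the median difference of all genes at 0.19, against -0.0055 in the deposited scale, and gives 34 members higher and 7 lower, so these line differences are relative to the median gene.

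**Figure D1:**
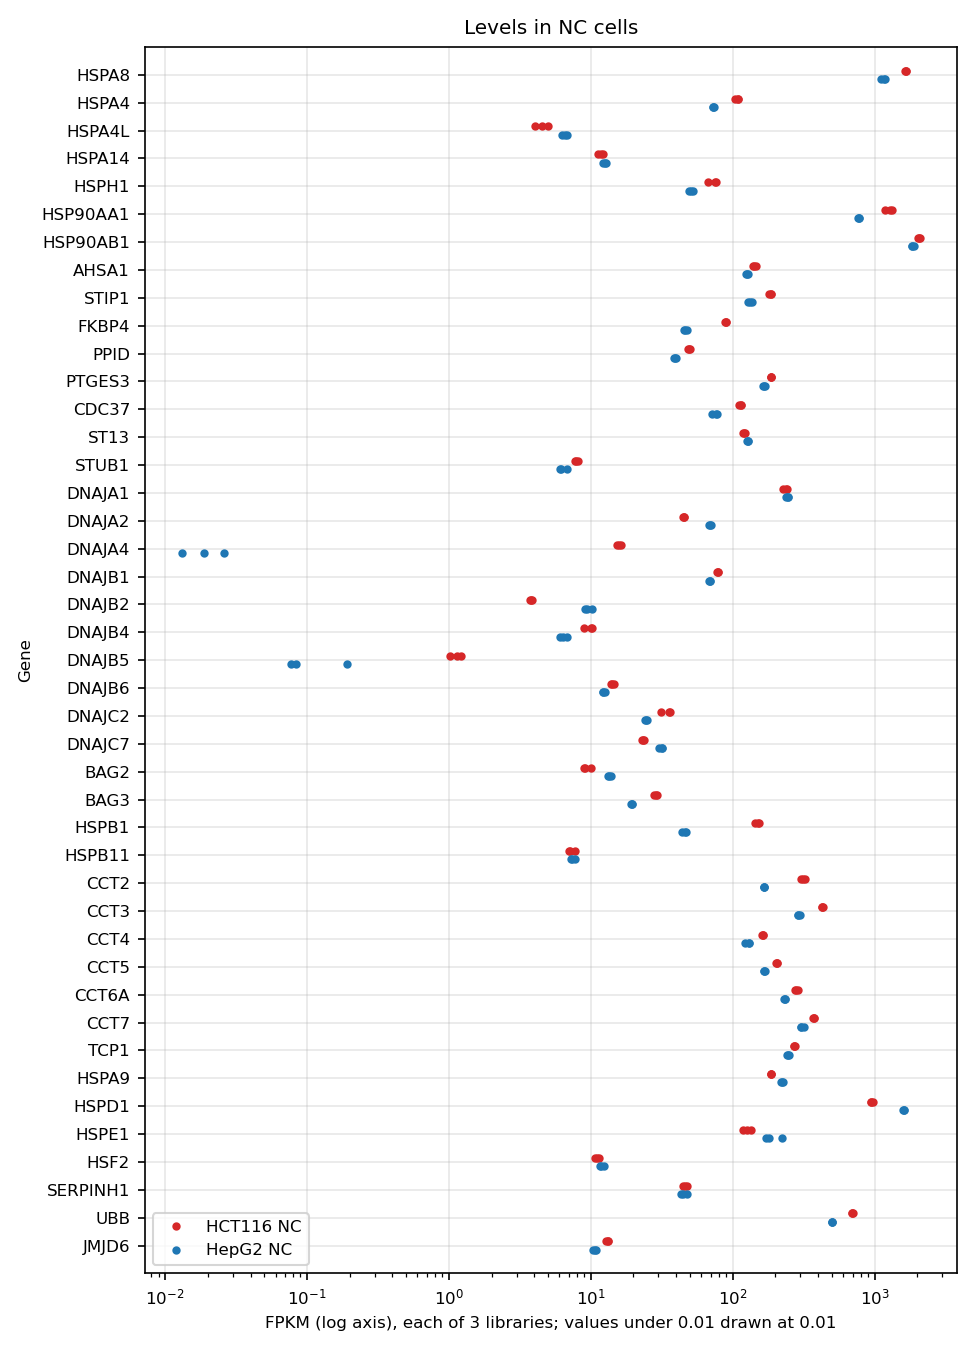
FPKM (log axis) of the members in each of the 3 NC libraries of HCT116 (red) and HepG2 (blue). The 3 libraries of a line lie close together for most genes, and the widest gap between the lines is that of DNAJA4, with HCT116 near 16 FPKM and HepG2 under 0.03 FPKM.

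Torin1 lowered many members at 3 h and most of them at 6 h in both lines. In HCT116, 20 of 44 members fell and 5 rose at 3 h, where 28.6% of the 11395 genes tested fell and 25.1% rose, and 30 fell and 3 rose at 6 h, where 31.5% fell and 25.8% rose. In HepG2, 27 of 42 fell and 1 rose at 3 h, where 26.1% of the 11280 genes tested fell and 19.4% rose, and 34 fell and 1 rose at 6 h, where 33.8% fell and 26.1% rose. The members' median difference in HCT116 was -0.10 at 3 h and -0.18 at 6 h, beside -0.0046 and -0.02 for all genes tested. In HepG2 it was -0.16 and -0.34, beside -0.036 and -0.033. With total-read scaling the HCT116 3 h split was 27 lower and 3 higher.

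The members together made up 2.57 ± 0.0723% of all FPKM after 3 h of Torin1, 2.41 ± 0.0876% after 6 h and 3.00 ± 0.0829% in NC in HCT116 (SD, n = 3 each). In HepG2 these shares were 1.86 ± 0.0164%, 1.75 ± 0.0132% and 2.16 ± 0.0235%. The Torin1 libraries lay below the NC libraries in both lines, with no overlap. Most cytokine groups lay below NC as well, though above Torin1: in HCT116 TNF-α at 3 h had 2.70 ± 0.0158% and the IL-6 libraries at 3 h had 2.81, 2.80 and 2.79%, and in HepG2 TNF-α at 6 h had 2.01 ± 0.0200%. The groups that overlapped NC were IL-10 at both times in HCT116 and IL-6 at 3 h in HepG2. The summed FPKM of the members did not follow the share in every group. In HCT116 it was 10755 ± 288 with IL-6 at 3 h and 10924 ± 99.4 at 6 h, against 10799 ± 189 in NC. It was 10418 ± 129 with TNF-α and 9156 ± 192 with Torin1 at 6 h (SD, n = 3 each). In HepG2 the sum averaged below NC (9329 ± 12.1) in every treated group, such as 8696 ± 44.6 with TNF-α at 6 h.

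**Figure D2:**
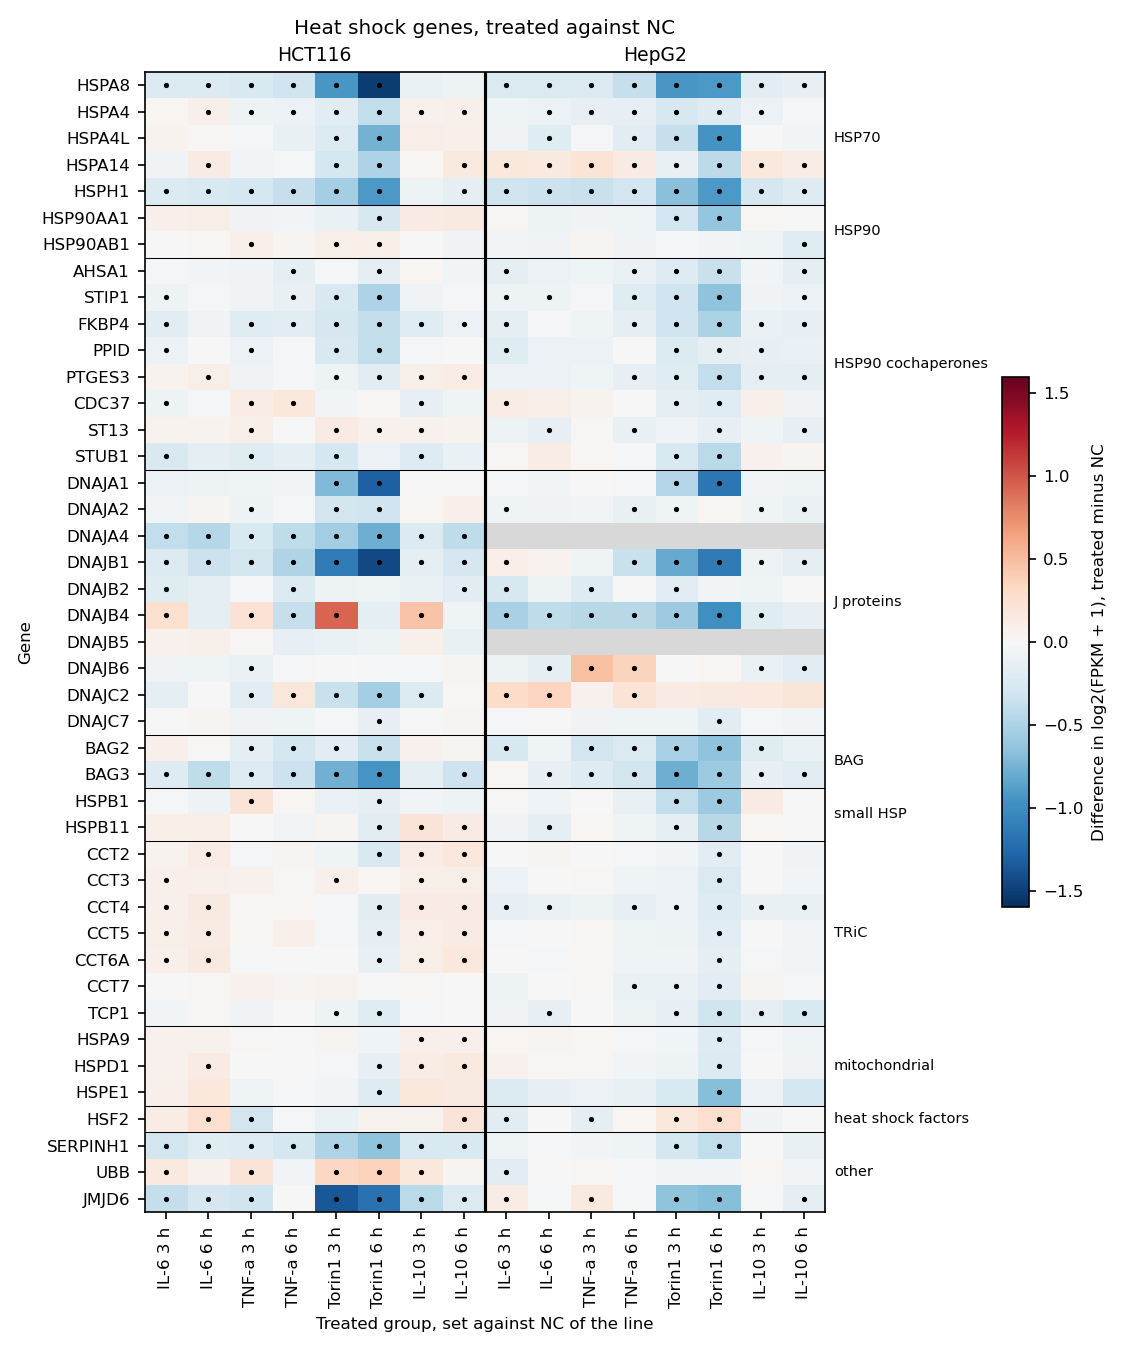
Difference in log2(FPKM + 1) between each treated group and NC of its line (colour), for the tested members grouped by role; a dot marks a limma adjusted p under 0.05 and grey a gene that was not tested. The deepest colours are in the Torin1 columns, with HSPA8 in HCT116 at 6 h the lowest of all at -1.52.

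The HSP70 cycle carried most of the strongest falls. HSPA8 had 886, 825 and 895 FPKM after 3 h of Torin1 and 587, 551 and 599 FPKM after 6 h in HCT116, against 1664, 1631 and 1671 FPKM in NC. Its difference was -0.93 (SE 0.044, limma adjusted p = 5.17e-13) at 3 h and -1.52 (SE 0.044, limma adjusted p = 8.41e-16) at 6 h, so that 35.0% of the NC level was left at 6 h. HepG2 cells had 622, 577 and 616 FPKM of HSPA8 at 3 h and 600.2, 627 and 605 FPKM at 6 h, against 1167, 1117 and 1189 FPKM in NC, a difference of -0.94 (SE 0.037, limma adjusted p = 1.96e-14) and -0.92 (SE 0.037, limma adjusted p = 1.39e-14). All Torin1 libraries were below all NC libraries. HSPA8 was lower again at 6 h than at 3 h in HCT116 (-0.59, SE 0.044, limma adjusted p = 4.12e-09). In HepG2 the 2 times overlapped (0.015, SE 0.037, limma adjusted p = 0.793).

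HSPH1 is an HSP110, which helps HSP70 exchange ADP for ATP. It had 51.1, 46.4 and 51.7 FPKM after 3 h of Torin1 and 35.9, 36.7 and 41.5 FPKM after 6 h in HCT116, against 76.4, 67.3 and 74.8 FPKM in NC. HepG2 cells had 31.8, 31.3 and 31.3 FPKM at 3 h and 25.3, 26.0 and 27.5 FPKM at 6 h, against 50.6, 49.2 and 52.2 FPKM in NC. No Torin1 library reached an NC library, and at 6 h the difference was -0.92 (SE 0.053, limma adjusted p = 7.36e-12) in HCT116 and -0.92 (SE 0.056, limma adjusted p = 8.97e-12) in HepG2. HSPA4 and HSPA4L, also of the HSP110 family, and HSPA14, a ribosome-associated HSP70, fell in both lines at both times. All 5 HSP70 members therefore fell in each of the 4 Torin1 comparisons, where 26.1% to 33.8% of all genes tested fell. HSPA4L averaged 2.27 ± 0.178 FPKM at 6 h against 4.52 ± 0.461 FPKM in NC in HCT116, and 2.91 ± 0.168 FPKM against 6.55 ± 0.274 FPKM in HepG2 (SD, n = 3 each).

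Of the J proteins, the partners of HSP70, DNAJB1 and DNAJA1 were the lowest against NC at 6 h in both lines. DNAJB1, the main stress-inducible J protein, had 34.7, 34.9 and 37.0 FPKM at 3 h and 28.4, 26.7 and 29.6 FPKM at 6 h of Torin1 in HCT116, against 79.2, 77.4 and 79.1 FPKM in NC. The difference was -1.12 (SE 0.044, limma adjusted p = 2.47e-14) at 3 h and -1.45 (SE 0.044, limma adjusted p = 8.41e-16) at 6 h. HepG2 cells had 38.0, 38.6 and 39.7 FPKM at 3 h and 29.7, 30.9 and 32.1 FPKM at 6 h, against 68.9, 69.4 and 67.6 FPKM in NC, a difference of -0.81 (SE 0.028, limma adjusted p = 2.14e-15) and -1.13 (SE 0.028, limma adjusted p = 1.4e-17). At 6 h 35.9% of the NC level was left in HCT116 and 45.0% in HepG2.

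DNAJA1, whose heat shock element lies just past its start, had 146, 134 and 150.3 FPKM at 3 h and 89.1, 90.8 and 103 FPKM at 6 h in HCT116, against 241, 227 and 237 FPKM in NC. HepG2 cells had 183, 171 and 174 FPKM at 3 h and 106, 111 and 107 FPKM at 6 h, against 245, 239 and 246 FPKM in NC. Each step was lower than the one before, and the 6 h difference was -1.31 (SE 0.051, limma adjusted p = 2.41e-14) in HCT116 and -1.16 (SE 0.034, limma adjusted p = 1.12e-16) in HepG2. DNAJA4, testable in HCT116 only, averaged 10.4 ± 0.267 FPKM at 3 h and 8.79 ± 0.217 FPKM at 6 h, against 15.9 ± 0.507 FPKM in NC (SD, n = 3 each; -0.78 (SE 0.053, limma adjusted p = 9.57e-11) at 6 h).

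The J proteins did not move as one: 6 of 10 fell at 6 h in HCT116 and 4 of 8 in HepG2, where 31.5% and 33.8% of all genes tested fell. DNAJB6 and DNAJB2 were called in neither line at 6 h (-0.017 and -0.075 in HCT116). DNAJC2, a J protein that sits on ribosomes, fell in HCT116 (-0.36 and -0.54) and stood at 0.13 and 0.15 in HepG2 without passing the test.

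BAG3, a nucleotide exchange factor of HSP70 that also serves selective autophagy, had 14.96, 17.2 and 17.1 FPKM at 3 h and 13.7, 14.3 and 15.4 FPKM at 6 h of Torin1 in HCT116, against 29.5, 28.1 and 28.7 FPKM in NC (-0.77 and -0.94). HepG2 cells had 10.5, 10.8 and 11.46 FPKM at 3 h and 12.4, 13.03 and 12.4 FPKM at 6 h, against 19.1, 19.5 and 19.7 FPKM in NC (-0.78 and -0.59). Between the times it fell in HCT116 (-0.17, SE 0.061, limma adjusted p = 0.0377) and rose in HepG2 (0.19, SE 0.044, limma adjusted p = 0.00151). BAG2, which inhibits the ubiquitin ligase STUB1, fell at both times in both lines, with -0.18 and -0.36 in HCT116 and -0.52 and -0.64 in HepG2.

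**Figure D3:**
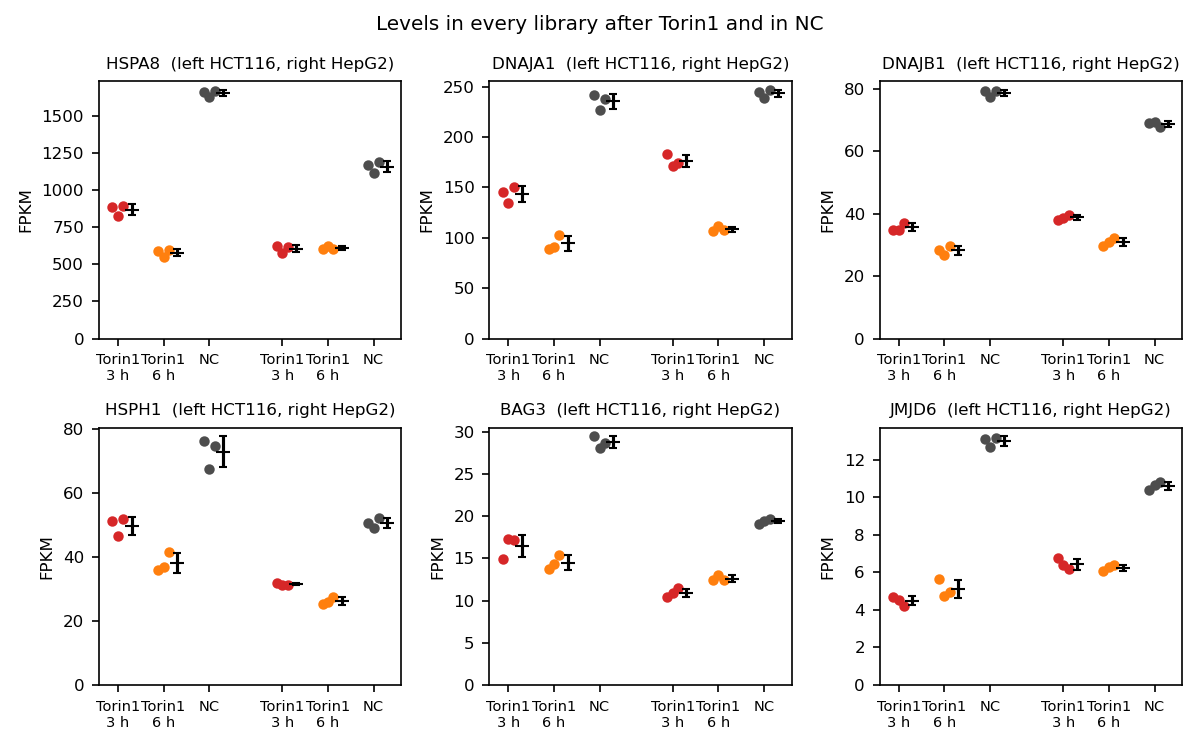
FPKM in each library (points), with mean and SD of 3 beside them, of 6 members after 3 h and 6 h of Torin1 and in NC, HCT116 on the left and HepG2 on the right of each panel. In all 6 panels the Torin1 libraries lie below every NC library of their line.

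The HSP90 paralogs parted. HSP90AA1, the inducible form, had 1209.9, 1098 and 1216 FPKM at 3 h and 1019.5, 1038 and 1122 FPKM at 6 h of Torin1 in HCT116, against 1335, 1177 and 1275 FPKM in NC. The 3 h libraries overlapped NC and the 6 h libraries did not (-0.25, SE 0.052, limma adjusted p = 0.000332). HepG2 cells had 621, 636 and 614 FPKM at 3 h and 478, 530.3 and 498 FPKM at 6 h, against 773, 761 and 776 FPKM in NC (-0.62, SE 0.046, limma adjusted p = 2.91e-10 at 6 h). HSP90AB1 had 2157, 2221 and 2229 FPKM at 3 h and 2195, 2198 and 2213 FPKM at 6 h in HCT116, against 2094, 2071 and 2026 FPKM in NC. That is a small rise of 0.094 (SE 0.025, limma adjusted p = 0.0037) and 0.094 (SE 0.025, limma adjusted p = 0.00333), of which the 3 h call is lost when libraries are scaled by total reads (0.043, limma adjusted p = 0.0908). In HepG2 HSP90AB1 was at -0.033 and -0.047 and did not pass.

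Among the HSP90 cochaperones, 5 of 9 fell at 3 h and at 6 h in HCT116, and 7 and 8 of 9 in HepG2. Of all genes tested, 28.6% and 31.5% fell in HCT116 and 26.1% and 33.8% in HepG2. STIP1 (HOP), which hands clients from HSP70 to HSP90, averaged 156 ± 2.15 FPKM at 3 h and 130.2 ± 3.01 FPKM at 6 h of Torin1 in HCT116, against 184 ± 2.72 FPKM in NC. HepG2 cells averaged 106 ± 1.98 FPKM and 84.4 ± 2.33 FPKM, against 133 ± 3.48 FPKM (SD, n = 3 each). FKBP4, the peptidyl-prolyl isomerase PPID, and PTGES3 (p23), which stabilises the closed HSP90, fell in both lines at both times.

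The other cochaperones differed between the lines. AHSA1, which speeds the ATPase of HSP90, fell in HepG2 at both times (-0.21 and -0.36) and in HCT116 at 6 h (-0.15). CDC37, the kinase-loading cochaperone, fell in HepG2 (-0.14 and -0.20) and was at -0.04 and 0.014 in HCT116, not called. ST13 (HIP), an HSP70 cofactor, rose in HCT116 (0.13 and 0.072) and fell in HepG2 at 6 h (-0.13). Without replicate 1 of HCT116 NC the 6 h rise of ST13 did not pass (0.058, limma adjusted p = 0.0603), and against IL-10 of the same hour neither did (limma adjusted p = 0.0594 and 0.438).

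TRiC moved late and by little. In HCT116, 1 of 7 tested subunits fell and 1 rose at 3 h, where 28.6% and 25.1% of all genes tested did. At 6 h 5 fell, from -0.24 (CCT2) to -0.12 (CCT6A), where 31.5% of all genes fell. In HepG2, 3 fell at 3 h and all 7 at 6 h, from -0.32 (TCP1) to -0.15 (CCT6A), where 26.1% and 33.8% of all genes fell. CCT2 had 266, 261 and 272 FPKM after 6 h of Torin1 in HCT116, against 323, 314 and 306 FPKM in NC, and 148, 148 and 145 FPKM in HepG2, against 167, 165 and 165 FPKM. CCT3 rose at 3 h in HCT116 (0.08), a call that was lost without any 1 of 4 libraries (replicates 1 and 3 of NC, 1 and 2 of Torin1; limma adjusted p = 0.0519 to 0.0908), and it stood at -0.014 against IL-10 of the same hour.

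Of the 3 tested mitochondrial chaperones none was called at 3 h in either line, and at 6 h 2 fell in HCT116 and all 3 in HepG2. At 6 h 31.5% of all genes tested fell in HCT116 and 33.8% in HepG2. HSPA9, the mitochondrial HSP70, was at -0.054 in HCT116 (not called) and -0.20 in HepG2 at 6 h. HSPD1 had 856, 855 and 897 FPKM after 6 h of Torin1 in HCT116, against 981, 938 and 943 FPKM in NC (-0.13, SE 0.031, limma adjusted p = 0.000898), and 1353, 1435 and 1379 FPKM in HepG2, against 1592, 1614 and 1626 FPKM (-0.21, SE 0.033, limma adjusted p = 1.24e-05). HSPE1, its HSP10 partner, was at -0.21 (SE 0.072, limma adjusted p = 0.0155) in HCT116 and -0.68 (SE 0.12, limma adjusted p = 3.02e-05) in HepG2 at 6 h, where the HepG2 NC libraries were spread over 222, 179 and 172 FPKM. Of the small heat shock proteins, HSPB1 had 129.9, 137 and 136 FPKM at 6 h in HCT116, against 154, 145 and 149.7 FPKM in NC, and 29.4, 31.6 and 29.5 FPKM in HepG2, against 44.2, 46.6 and 46.3 FPKM. HSPB1 was called at 6 h only in HCT116 (-0.15) and at both times in HepG2 (-0.40 and -0.58).

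Of the remaining members, JMJD6 and SERPINH1 fell and UBB rose in HCT116. JMJD6 had 4.70, 4.52 and 4.22 FPKM at 3 h and 5.64, 4.75 and 4.97 FPKM at 6 h of Torin1 in HCT116, against 13.1, 12.7 and 13.2 FPKM in NC. The difference, -1.35 (SE 0.051, limma adjusted p = 1.7e-14) at 3 h, was the lowest of all members at that time, and at 6 h it was -1.20 (SE 0.051, limma adjusted p = 8.27e-14). HepG2 cells had 6.76, 6.41 and 6.17 FPKM at 3 h and 6.07, 6.28 and 6.39 FPKM at 6 h, against 10.4, 10.6 and 10.8 FPKM in NC (-0.64 and -0.68). SERPINH1 was at -0.49 and -0.65 in HCT116 and at -0.28 and -0.39 in HepG2. HSF2, a heat shock factor, rose in HepG2, to 13.8 ± 0.208 FPKM at 3 h and 14.7 ± 1.20 FPKM at 6 h, against 11.99 ± 0.427 FPKM in NC (SD, n = 3 each), and was not called in HCT116.

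UBB had 879, 890.3 and 859.8 FPKM at 3 h and 889, 889 and 911 FPKM at 6 h of Torin1 in HCT116, against 707, 689 and 694 FPKM in NC. The rise was 0.33 (SE 0.038, limma adjusted p = 2.14e-07) and 0.36 (SE 0.038, limma adjusted p = 5.06e-08). In HepG2 it was at -0.04 and -0.043 and did not pass.

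Between the times, most members were lower at 6 h than at 3 h under Torin1. At 6 h against 3 h, 28 of 44 members were lower and 2 higher in HCT116, where 16.3% and 14.1% of all genes tested were called in those directions. In HepG2 24 of 42 were lower and 2 higher, where 19.3% and 17% were called. DNAJA1 was at -0.60 (SE 0.051, limma adjusted p = 2.36e-08) in HCT116 and -0.70 (SE 0.034, limma adjusted p = 3.57e-12) in HepG2. The members higher at 6 h in HCT116 were JMJD6 (0.16) and STUB1 (0.19). The JMJD6 call did not pass without replicate 3 at 3 h or replicate 1 at 6 h (limma adjusted p = 0.121 and 0.174), and the STUB1 call without any 1 of 4 libraries (0.0605 to 0.165). Without the filter on low values neither passed (limma adjusted p = 0.0607 for JMJD6 and 0.0722 for STUB1).

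Torin1 was also set against IL-10 of the same hour, a comparison that shares the Torin1 libraries with those above. In HCT116 it gave 26 members lower and 4 higher of 44 at 3 h (26.7% and 17.6% of all genes) and 31 lower and 3 higher at 6 h (33.7% and 23.6%). In HepG2 it gave 22 lower and 2 higher of 42 at 3 h (24% and 21.5%) and 31 lower and 4 higher at 6 h (30.3% and 28.7%). HSPA8 was at -0.83 and -1.44 in HCT116 and at -0.75 and -0.80 in HepG2.

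The lines shared most of the Torin1 falls. Of the 42 members tested in both lines, 19 fell in HCT116 and 27 in HepG2 at 3 h, and 18 fell in both (94.7% of the HCT116 list and 66.7% of the HepG2 list). At 6 h 29 fell in HCT116 and 34 in HepG2, and 27 in both (93.1% and 79.4%). Lists this long out of 42 would overlap in good part by their length alone, and the overlap over all genes was not counted. Across the 41 of these members without a copy entry, the differences in the lines correlated with r = 0.58 at 3 h and 0.71 at 6 h, as a description of genes that share their libraries.

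The sizes differed for part of the members. The difference of the Torin1 effects (HCT116 minus HepG2) was above 0 for 11 and below 0 for 8 of 42 members at 3 h. Of the 9683 genes tested in both lines, 20.4% and 19.5% were called in those directions. At 6 h the difference was above 0 for 20 and below 0 for 11 members, where 26.4% and 23.7% of all genes were called. Only the count above 0 at 6 h was clearly a larger share of the members than of all genes. The other counts were near the shares of all genes, and no test compared these shares. HSPA8 showed no called difference at 3 h (0.0055, SE 0.058, limma adjusted p = 0.952) and fell further in HCT116 at 6 h (-0.59, SE 0.058, limma adjusted p = 5.36e-11). DNAJB1 fell further in HCT116 at both times (-0.31 and -0.32), as did JMJD6 (-0.71 and -0.52). HSP90AA1 stood higher relative to NC in HCT116 than in HepG2 (0.20 and 0.37), and so did BAG2 (0.33 and 0.28), HSPB1 (0.30 and 0.43) and UBB (0.37 and 0.41).

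**Figure D4:**
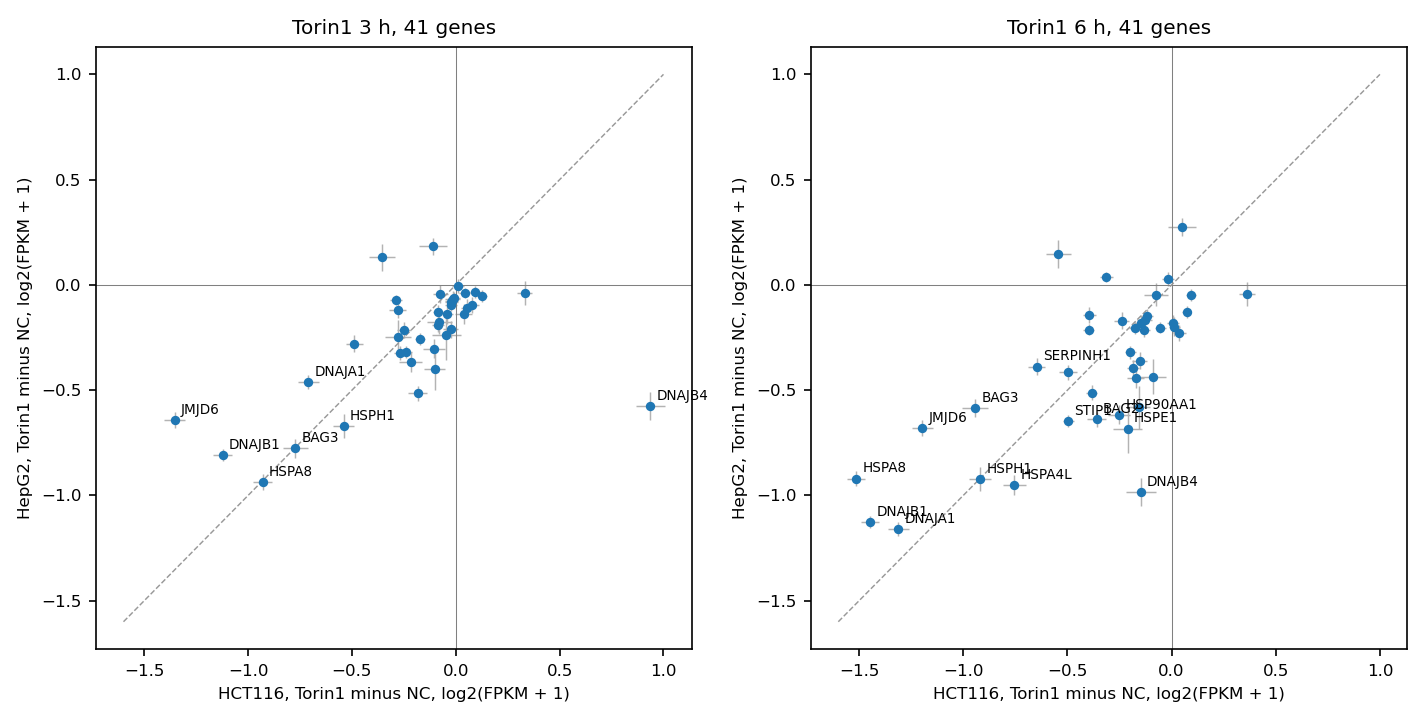
Torin1 minus NC in log2(FPKM + 1) in HCT116 (x axis) against HepG2 (y axis) at 3 h (left) and 6 h (right), 1 point per member tested in both lines and without a copy entry, with SE bars and a dashed diagonal. Most points lie below 0 on both axes, and DNAJB4 stands apart at 3 h, at 0.94 in HCT116 and -0.58 in HepG2.

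DNAJB4, a J protein close to DNAJB1, went opposite ways. It had 19.7, 18.6 and 20.5 FPKM after 3 h of Torin1 and 8.20, 8.41 and 9.56 FPKM after 6 h in HCT116, against 10.2, 9.03 and 10.1 FPKM in NC. HepG2 cells had 3.78, 3.80 and 4.33 FPKM at 3 h and 2.98, 2.41 and 2.85 FPKM at 6 h, against 6.40, 6.06 and 6.77 FPKM in NC. The 3 h libraries lay above NC in HCT116 (0.94, SE 0.071, limma adjusted p = 5.18e-10) and below it in HepG2 (-0.58, SE 0.067, limma adjusted p = 5.13e-07), and the difference of effects was 1.51 (SE 0.10, limma adjusted p = 1.87e-15). Against IL-10 at 3 h the HCT116 rise was 0.49 (SE 0.071, limma adjusted p = 1.07e-05). At 6 h HCT116 overlapped NC (-0.15, SE 0.071, limma adjusted p = 0.08) and HepG2 did not (-0.99, SE 0.067, limma adjusted p = 7.2e-11).

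The cytokine groups moved the set by less. In HCT116 their comparisons share the 3 NC libraries, so the counts are given side by side. IL-6 raised 6 of 44 members and lowered 13 at 3 h (15.9% and 15.6% of all genes tested), and raised 9 and lowered 7 at 6 h (11.1% and 5.45%). TNF-α raised 6 and lowered 16 at 3 h (19.2% and 22.4%), and raised 2 and lowered 13 at 6 h (16.7% and 17.1%). IL-10 raised 13 and lowered 8 at 3 h (21.8% and 16.9%), and raised 12 and lowered 8 at 6 h (14% and 6.49%). With total-read scaling the raised and lowered counts became 2 and 17, then 3 and 13, for IL-6, 2 and 26, then 1 and 22, for TNF-α, and 5 and 13, then 6 and 11, for IL-10.

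IL-6 set against IL-10 of the same hour called no member at 3 h or at 6 h in HCT116 by limma, where 0.237% and 0.114% of all genes were called. At an unadjusted limma p under 0.05 there were 7 and 4 of 44 members. The share of all genes at that looser threshold was not counted. TNF-α against IL-10 called 18 members lower and 3 higher at 3 h (22.2% and 14.3% of all genes) and 24 lower and 3 higher at 6 h (24.6% and 17.7%). The 3 h members included HSF2 (-0.35), BAG2 (-0.23) and CDC37 (0.25).

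Some inducible members were below NC in the cytokine groups of HCT116. DNAJA4 averaged 11.3 ± 0.681 FPKM with IL-6, 11.7 ± 0.751 FPKM with TNF-α and 11.8 ± 0.843 FPKM with IL-10 at 6 h, against 15.9 ± 0.507 FPKM in NC (SD, n = 3 each). DNAJB1 averaged 61.9 ± 1.03 FPKM with IL-6, 55.8 ± 1.71 FPKM with TNF-α and 65.3 ± 3.72 FPKM with IL-10, against 78.6 ± 1.02 FPKM in NC. BAG3 averaged 21.4 ± 0.590 FPKM with IL-6, 22.5 ± 0.662 FPKM with TNF-α and 22.8 ± 2.11 FPKM with IL-10, against 28.7 ± 0.701 FPKM in NC. These 9 differences, from -0.49 (DNAJB1 with TNF-α) to -0.27 (DNAJB1 with IL-10), all passed, and they share the NC libraries. Against IL-10 of the same hour, DNAJA4 was at -0.054 with IL-6 and -0.0043 with TNF-α. With IL-6, BAG3 was at -0.081 and DNAJB1 at -0.073 in that comparison. None of these passed (limma adjusted p = 0.585 to 0.958), while DNAJB1 with TNF-α kept its call. JMJD6 fell at 3 h with each cytokine, at -0.38 (IL-6), -0.32 (TNF-α) and -0.43 (IL-10). Against IL-10 at 3 h it was at 0.049 with IL-6 and 0.11 with TNF-α, not called (limma adjusted p = 0.793 and 0.0882).

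TRiC was slightly above NC with IL-6 and IL-10 in HCT116. With IL-6, 4 of 7 tested subunits were called higher at each time, where 15.9% and 11.1% of all genes were. With IL-10, 5 of 7 were called higher at each time (21.8% and 14% of all genes), and none was lower with either. With total-read scaling, all members called higher with IL-6 numbered 2 at 3 h and 3 at 6 h. The 2 were DNAJB4 and UBB, so no TRiC call stood at 3 h, and not all stood at 6 h. With IL-10 the numbers were 5 at 3 h and 6 at 6 h. DNAJB4, HSPB11 and UBB were among the 5, so TRiC calls were lost with IL-10 at 3 h too. CCT5 with IL-6 at 3 h (0.089) was at 0.047 with that scaling (limma adjusted p = 0.239), and was also lost without the filter, with only the 6 libraries compared, and without IL-6 replicate 1 (0.056, limma adjusted p = 0.222) or any 1 NC replicate. CCT4 averaged 180.2 ± 4.77 FPKM with IL-6 and 179 ± 5.76 FPKM with IL-10 at 6 h, against 162 ± 0.383 FPKM in NC (0.15 and 0.14, limma adjusted p = 0.00186 and 0.0023; with total-read scaling 0.093 for IL-6, limma adjusted p = 0.0177). No TRiC subunit was called with TNF-α in HCT116. CDC37 rose with TNF-α, with 120.2, 122 and 127 FPKM at 3 h and 127, 131 and 128 FPKM at 6 h, against 111, 115 and 115 FPKM in NC (0.11 and 0.17, limma adjusted p = 0.00232 and 4.61e-05). DNAJB4 was above NC at 3 h with IL-6 (0.26), TNF-α (0.24) and IL-10 (0.45), and UBB likewise (0.16, 0.21 and 0.16). The DNAJB4 call was lost for TNF-α with total-read scaling (limma adjusted p = 0.0526) and without NC replicate 2 (0.0640), and for IL-6 without IL-6 replicate 1 (0.0573) or NC replicate 2 (0.0537). The UBB call for IL-6 was lost with only the 6 libraries compared (limma adjusted p = 0.0606).

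Between the times in HCT116, few members were called. IL-6 gave 2 higher and 2 lower at 6 h (11.4% and 6.95% of all genes), TNF-α 4 and 8 (20.2% and 17%), and IL-10 3 and 4 (11.3% and 8.71%; 5 and 4 with total-read scaling). DNAJB4 was lower at 6 h than at 3 h with IL-6 (-0.41), TNF-α (-0.61) and IL-10 (-0.51). HSF2 had 8.91, 9.41 and 8.25 FPKM after 3 h of TNF-α, against 11.46, 11.04 and 10.8 FPKM in NC (-0.30, SE 0.068, limma adjusted p = 0.00134), and was higher again at 6 h (0.27 against 3 h).

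In HepG2 the cytokines lowered more members than they raised, as they did among all genes tested. IL-6 raised 5 and lowered 13 of 42 at 3 h (14.5% and 19.5% of all genes tested), and raised 2 and lowered 12 at 6 h (7.59% and 11.8%). TNF-α raised 3 and lowered 8 at 3 h (12.8% and 16.9%), and raised 3 and lowered 16 at 6 h (11.9% and 16.8%). IL-10 raised 1 and lowered 14 at 3 h (7.17% and 11.9%), and raised 1 and lowered 15 at 6 h (1.88% and 9.8%). With total-read scaling the raised and lowered counts were 4 and 20 with IL-6 at 3 h, 3 and 17 with TNF-α at 3 h, and 2 and 9 with IL-10 at 6 h. These comparisons, too, share 3 NC libraries.

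HSPA8 averaged 982 ± 17.2 FPKM at 3 h and 987 ± 35.5 FPKM at 6 h with IL-6, against 1158 ± 36.8 FPKM in NC (SD, n = 3 each). With TNF-α it averaged 989 ± 28.3 and 895 ± 28.4 FPKM, and with IL-10 1021 ± 28.8 and 1061 ± 33.0 FPKM. All 6 HSPA8 differences passed, from -0.37 (TNF-α at 6 h) to -0.13 (IL-10 at 6 h), as did those of HSPH1, from -0.36 (TNF-α at 3 h) to -0.21 (IL-10 at 6 h). The last of these was lost with total-read scaling (-0.18, limma adjusted p = 0.0616) and without IL-10 replicate 2 or NC replicate 1 or 3 (0.0507 to 0.0682). Against IL-10 of the same hour, HSPH1 was at -0.044 and -0.13 with IL-6 at 3 h and 6 h. With TNF-α at 3 h it was at -0.088, and none of these was called (limma adjusted p = 0.104 to 0.618). HSPA8 at 6 h kept its call against IL-10 with both IL-6 and TNF-α. HSPA14 was above NC in each of the 6 groups, by 0.12 (IL-10 at 6 h) to 0.22 (TNF-α at 3 h). The IL-10 call at 6 h was lost without the filter, with only the 6 libraries compared, with voom, and without any 1 of 4 libraries (NC replicate 1 or 2, IL-10 replicate 2 or 3), with 0.081 left without IL-10 replicate 2 (limma adjusted p = 0.198).

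Against IL-10 in HepG2, IL-6 called 4 members higher and 5 lower at 3 h (12% and 10.9% of all genes) and 7 higher and 4 lower at 6 h (14.4% and 9.28%). TNF-α against IL-10 called 5 higher and 2 lower at 3 h (10% and 6.06%), and 5 higher and 8 lower at 6 h (18.9% and 15.9%).

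DNAJB6, a J protein that keeps polyglutamine proteins soluble, rose with TNF-α in HepG2. It had 17.5, 17.6 and 17.6 FPKM at 3 h and 16.2, 15.4 and 16.5 FPKM at 6 h, against 12.5, 12.2 and 12.2 FPKM in NC, a difference of 0.48 (SE 0.033, limma adjusted p = 2.41e-10) and 0.36 (SE 0.033, limma adjusted p = 4.75e-08). Every TNF-α library stood above every NC library. In HCT116 it had 13.1, 13.03 and 13.3 FPKM at 3 h, against 14.6, 14.1 and 13.9 FPKM in NC (-0.10, SE 0.027, limma adjusted p = 0.00376). The difference of effects, HCT116 minus HepG2, was -0.58 (SE 0.042, limma adjusted p = 2.18e-14) at 3 h and -0.39 (SE 0.042, limma adjusted p = 1.85e-09) at 6 h. Over all members, the difference of TNF-α effects was above 0 for 1 and below 0 for 6 of 42 at 3 h (10.7% and 12.2% of all genes), and above 0 for 6 and below 0 for 2 at 6 h (10.4% and 6.35%; 0 and 5 with total-read scaling).

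DNAJB4 was lower with IL-6 and TNF-α in HepG2, at 4.15 ± 0.236 and 4.46 ± 0.362 FPKM at 3 h and 4.61 ± 0.256 and 4.45 ± 0.115 FPKM at 6 h, against 6.41 ± 0.353 FPKM in NC (SD, n = 3 each). DNAJC2 rose with IL-6 there (0.29 and 0.35), and DNAJB1 fell with TNF-α at 6 h (-0.36, SE 0.028, limma adjusted p = 4.16e-09). Between the times, 5 members were higher and 2 lower at 6 h with IL-6 (11.3% and 12.2% of all genes), 2 and 12 with TNF-α (12% and 13.4%), and 0 and 2 with IL-10 (6.43% and 9.57%). With total-read scaling TNF-α gave 5 higher and 8 lower, and IL-10 3 higher and 1 lower.

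**Figure D5:**
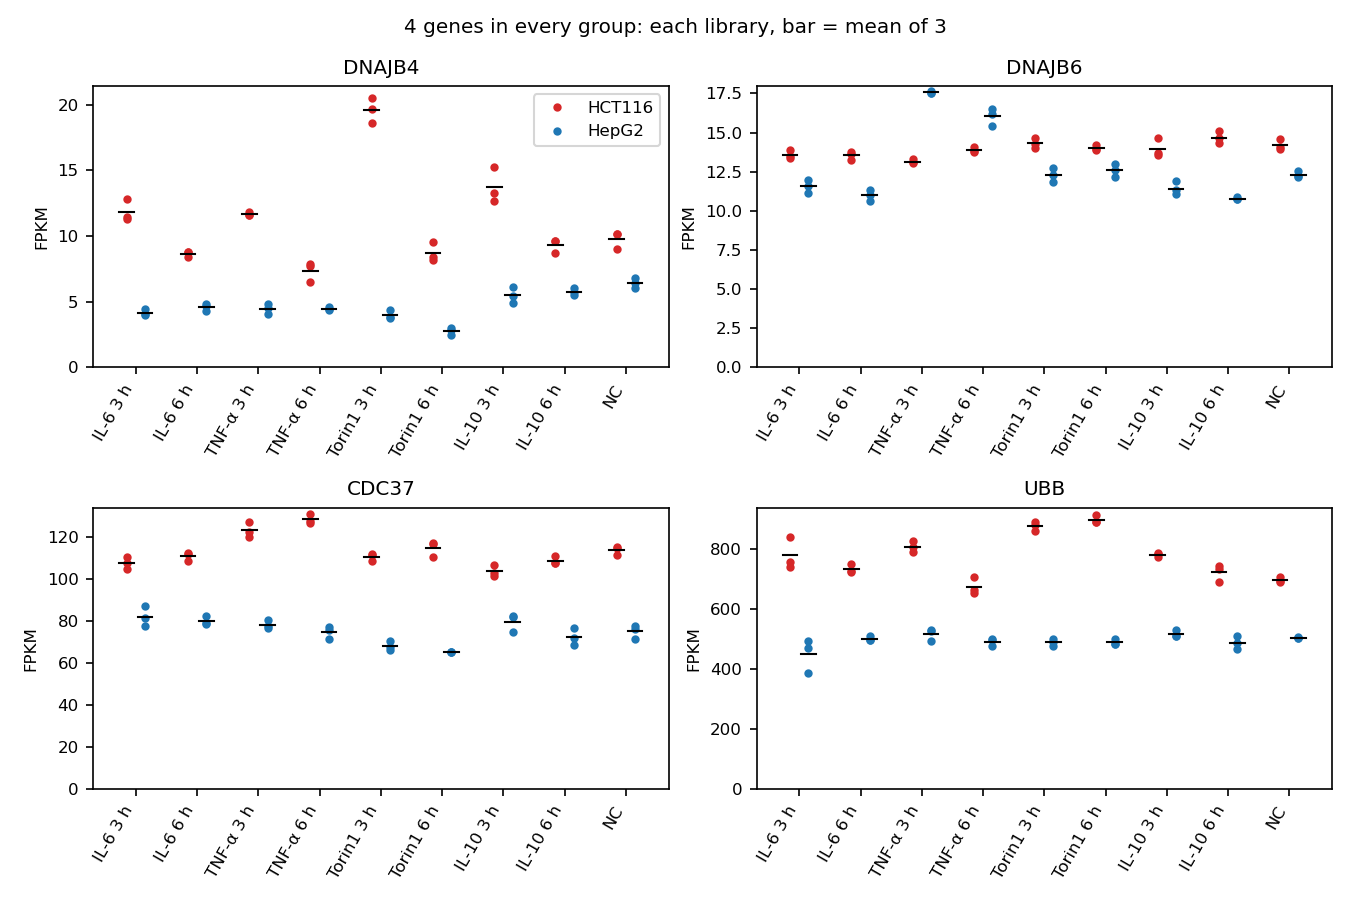
FPKM of DNAJB4, DNAJB6, CDC37 and UBB in each library (points) with the mean of 3 (black bar), by treatment and time with NC at the right, HCT116 in red and HepG2 in blue. DNAJB6 with TNF-α stands between 15.4 and 17.6 FPKM in HepG2, above the other HepG2 groups, and DNAJB4 with Torin1 at 3 h stands highest in HCT116.

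The members with a heat shock element did not share 1 response to Torin1. At 6 h in HCT116, HSPA8, DNAJA1 and SERPINH1 were at -1.52, -1.31 and -0.65, HSP90AA1 and HSPD1 at -0.25 and -0.13, DNAJB6 at -0.017 (not called) and HSP90AB1 at 0.094. CHORDC1, which also holds the letters, was not called. Members whose windows do not hold these letters were spread as well. DNAJB1, BAG3 and HSPH1, picked for their strong falls, were at -1.45, -0.94 and -0.92, while UBB rose and CDC37, DNAJB2 and HSPA9 were not called. An exact search of 300 bases does not show that a gene lacks heat shock elements, and a link of the letters to the responses was not tested.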

How the data were processed

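The authors deposited FPKM values in 1 table with a column per library, each matched to its sample by title. Poly(A) RNA went into VAHTS Universal V8 libraries for MGI and paired-end sequencing, per the labels' protocols. The submitters' processing notes name FastQC, HISAT2, StringTie, DESeq2 and GRCh38, with roles, versions and settings not given in the sources used here. Whole reads were recovered from the FPKM steps for 33661 of 33661 genes above 0 in at least 2 libraries (100%, tolerance 0.01 read). The deposited scale followed median-of-ratios factors of these reads (ratio 0.998 to 1.002). Unnamed comparison columns of the table and a Torin1 recovery group named in the series text were not analysed here, and the series title, on tomato, does not describe these cells.

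Each line was fitted with limma 3.58.1 (R 4.3.3; empirical Bayes with trend) on log2(FPKM + 1), 1 mean per group, over genes that reached 1 FPKM in 3 or more of its 27 libraries. A fit of all 54 libraries gave the comparisons of lines. This scale understates changes of low genes. The fit was tested on simulated data. Depth limits the precision of members near 1 FPKM. Full statistics were to go to at most 6 rises and 6 falls per comparison, the largest among called members that averaged 5 FPKM or more in 1 group; other members are named for their role and were chosen after their values were seen. The members, gene lists and tests were chosen with earlier results of these data known. Alternatives were another pseudocount, no filter, total-read scaling, a replicate block, only the 6 libraries compared, IL-10 as control, each library left out, and, chosen after seeing the data, voom on the recovered reads, which called 6508 genes for Torin1 at 6 h in HCT116 and 6892 in HepG2. Gene symbols were matched to RefSeq (GRCh38.p14).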

Additional observations from a re-analysis of the deposited data

Results flagged for a closer look

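A test of the difference of effects between the lines (limma, all 54 libraries; HCT116 minus HepG2 in log2(FPKM + 1), each relative to NC of its line) picked out the following members, at most 3 in each direction per comparison. No explanation was tested for any of them.

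For Torin1 at 3 h the difference was above 0 for DNAJB4 (1.51), UBB (0.37) and BAG2 (0.33), and below 0 for JMJD6 (-0.71), DNAJC2 (-0.49) and DNAJB1 (-0.31). DNAJB4 rose in HCT116 and fell in HepG2, UBB rose in HCT116 and was not called in HepG2, and BAG2 and JMJD6 fell in both lines by unequal amounts. For Torin1 at 6 h it was above 0 for DNAJB4 (0.84), HSPE1 (0.47) and HSPB1 (0.43), which fell further in HepG2, although DNAJB4 was not called in HCT116. It was below 0 for DNAJC2 (-0.69), HSPA8 (-0.59) and JMJD6 (-0.52), of which DNAJC2 was called in HCT116 only.

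For TNF-α at 3 h it was above 0 for DNAJB4 (0.68) and below 0 for DNAJB6 (-0.58), JMJD6 (-0.47) and HSPA14 (-0.26). JMJD6 fell in HCT116 and rose in HepG2 (0.16), where the rise did not pass in a fit of only those 6 libraries. For TNF-α at 6 h it was above 0 for CDC37 (0.18), CCT4 (0.16) and CCT5 (0.15), calls that did not pass with total-read scaling (0.12, 0.10 and 0.095), and below 0 for DNAJB6 (-0.39) and SERPINH1 (-0.21).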

How the results depend on the processing

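Over 29 comparisons, the number of members called stayed within 1.5 times under most alternatives, and for Torin1 under every alternative run. Without the filter it was 12 (19 with it) for HCT116 IL-6 at 3 h, 12 (20) for HCT116 IL-10 at 6 h, 8 (15) for HepG2 IL-10 at 3 h, and for 6 h against 3 h in HepG2 8 (14) with TNF-α and 0 (2) with IL-10. Total-read scaling gave 23 (15) for HCT116 TNF-α at 6 h, 20 (11) for HepG2 TNF-α at 3 h, 4 (2) for HepG2 IL-10 between the times, and 5 (8) for the difference of TNF-α effects at 6 h. With only the 6 libraries compared it was 9 (20) for HCT116 IL-10 at 6 h, 10 (18) for HepG2 IL-6 at 3 h and 8 (15) for HepG2 IL-10 at 3 h. IL-10 as control gave 0 (19) and 0 (16) for HCT116 IL-6, 27 (15) for HCT116 TNF-α at 6 h, 9 (18) for HepG2 IL-6 at 3 h and 7 (11) for HepG2 TNF-α at 3 h. Voom gave 5 (2) for HepG2 IL-10 between the times.

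With a replicate block, HepG2 IL-10 between the times gave 5 (2), and no other count moved that far. The replicate numbers showed no clear pairing over all genes tested. Deviations of same-numbered NC and treated libraries correlated from -0.069 to 0.082 in HCT116 and from -0.12 to 0.11 in HepG2. A pairing that acts on few genes would not show in these values.

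Leaving out 1 library gave 12 to 16 calls for HCT116 IL-6 at 3 h (lowest without NC replicate 2 or 3), 12 to 21 for HCT116 IL-10 at 6 h (without NC replicate 3 or IL-10 replicate 2), 7 to 12 for HepG2 IL-10 at 3 h (9 or fewer without any 1 NC replicate or IL-10 replicate 2 or 3), 9 to 15 for HepG2 IL-10 at 6 h (10 or fewer without NC or IL-10 replicate 2) and 5 to 9 for the difference of TNF-α effects at 6 h (without HCT116 NC replicate 1, HCT116 TNF-α replicate 2 or HepG2 NC replicate 2). Between the times it gave 4 to 9 for HCT116 IL-10 (4 without 3 h replicate 1), 3 to 7 for HCT116 IL-6 (7 without 3 h replicate 2), 1 to 4 for HepG2 IL-10 (without 3 h replicate 1 or 3, or 6 h replicate 1 or 2) and 9 to 13 for HepG2 TNF-α (9 without replicate 2 of either time).

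Of 165 results for single members, 9 reversed, each with IL-10 in place of NC: for HCT116 IL-6 at 3 h DNAJB4 (-0.19), UBB (-0.0061), CCT5 (-0.023) and JMJD6 (0.049), at 6 h CCT6A (-0.028), for HCT116 TNF-α at 3 h DNAJB4 (-0.21) and JMJD6 (0.11), for HCT116 Torin1 at 3 h CCT3 (-0.014) and for HepG2 IL-6 at 3 h HSPA14 (-0.0028). With the direction kept, the call was lost for 22 with IL-10 in place of NC, 14 without the filter, 12 with total-read scaling, 8 with only the 6 libraries compared, 1 with pseudocount 0.1 and 1 with voom. With some library left out 23 lost it, 4 of them among the 9. The cause was not tested.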

Other observations

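Of 48 other chaperone genes listed beside the members, 37 were tested in HCT116 and 34 in HepG2. With Torin1 in HCT116, 13 fell and 6 rose at 3 h, where 28.6% and 25.1% of all genes tested did. At 6 h 20 fell and 7 rose (31.5% and 25.8% of all genes). In HepG2 16 fell and 2 rose at 3 h (26.1% and 19.4%), and 20 fell and 2 rose at 6 h (33.8% and 26.1%). HSPA13, a microsomal member of the HSP70 family, rose in HCT116 (0.62 and 0.45). PFDN2, a subunit of prefoldin, which delivers actin and tubulin to TRiC, fell at 6 h in HCT116 (-0.38) and in HepG2 (-0.49).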
